A study of Rattus norvegicus with 18 samples.

Results

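Rat hepatocytes given EMD at 100 µM were set against hepatocytes given 30 µM, both after 72 h of culture with the compound. EMD is the short name of a compound that the study's methods describe as a dual agonist of PPARα and PPARγ. The arrays were chosen by their titles alone, and they make up 6 of the 18 arrays of the series, with 3 arrays for each dose. All 31042 probe sets that are not array controls were described. The hepatocytes came from the livers of Wistar rats. Age and sex were not given in the sources used here. All cells were left to attach for 24 h and then kept in incubation medium with gentamicin, insulin and hydrocortisone, so that the hormones were shared by every group. The vehicle groups received 0.1% DMSO without EMD, and 3 vehicle arrays at 72 h were used for reference levels. A further 6 arrays held the same doses at 24 h. The labels call the EMD arrays biological replicates, and by the methods the cells of each animal received each treatment. The labels do not say which array came from which animal. In such a culture, fewer cells of a type and less RNA per cell cannot be told apart.

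PPARα is a nuclear receptor that pairs with the retinoid X receptor on DNA and, once bound by a fatty acid or a drug, raises the transcription of genes for fatty acid uptake, mitochondrial and peroxisomal oxidation and ketone body synthesis. It is abundant in rodent liver, where its agonists are known as peroxisome proliferators. PPARγ is the related receptor of adipose tissue. Hepatocytes also make most plasma proteins, clear drugs and steroids with cytochromes P450, break down amino acids and turn cholesterol into bile acids, and these functions decline in plated cells. Secreted proteins fold in the endoplasmic reticulum (ER) with the help of chaperones such as BiP.

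Levels are RMA values on a log2 scale, so that a difference of 1 is a 2-fold change. A probe set was called when its difference in a limma fit of all 18 arrays had a Benjamini-Hochberg adjusted p under 0.05 over all 31042 probe sets. Differences are given as 100 µM minus 30 µM with 3 arrays for each dose, ± the SE of that fit. This SE pools the spread of all 18 arrays in 6 groups. It can be too small for a gene whose arrays split within 1 dose. Array medians lay between 5.04 and 5.11 for the 6 arrays, and the number of arrays limits the precision.

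Replicate 1 stood apart within both groups, and more so at 100 µM. Replicate 1 of the 100 µM group differed from replicate 1 of the 30 µM group by a root mean square of 0.225, and from replicates 2 and 3 of its own group by 0.363 and 0.326. Replicates 2 and 3 at 100 µM differed from each other by 0.215. At 30 µM, replicate 1 differed from replicates 2 and 3 by 0.271 and 0.269, and these differed from each other by 0.211. The deviations of the replicate 1 arrays from their group means correlated at 0.53 between the doses. Among the probe sets called below, the median size of the dose difference was 0.398 within replicate number 1, 0.791 within number 2 and 0.682 within number 3. In 805 of the 963 called probe sets (83.6%) 100 µM replicate 1 lay nearer to the 30 µM mean than both other 100 µM arrays did, against 42.0% of all probe sets. This array was kept in the fit, and counts without it are given beside groups of genes and calls. It was singled out from these same values for lying near the 30 µM arrays. Leaving it out therefore tends to enlarge the differences and the number of calls. Counts and p values without it describe this dependence and are not independent evidence. The ratio of 3′ to 5′ signal of beta-actin transcripts, a sign of RNA integrity, was between 0.840 and 0.852 on the log2 scale in the 100 µM arrays and between 0.819 and 0.894 in the 30 µM arrays. That of Gapdh was between 0.118 and 0.167 against between 0.149 and 0.216, lower at 100 µM within each replicate number, and that of hexokinase was between 1.57 and 1.79 against between 1.35 and 1.62. Their part in the results was not tested.

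At 72 h, 963 of 31042 probe sets (3.10%) were called between the doses. Of these, 388 (1.25%) were higher at 100 µM and 575 (1.85%) were lower. The arrays of the doses did not overlap in 942 of the 963, while 18.2% of all probe sets did not overlap. The median size of a called difference was 0.617, and 171 called probe sets differed at least 2-fold, of which 42 were higher and 129 lower. With the replicate number as a block, the number called was 1625, and 962 of the 963 were among them. The main fit has no block, so its calls, and overlaps between the arrays of the doses, take no account of pairing by number. Without replicate 1 of the 100 µM group, 2541 probe sets were called, and 928 of the 963 were among them. The number fell to 141 without 100 µM replicate 2 and to 177 without 100 µM replicate 3, and it was 492, 238 and 336 without 30 µM replicate 1, 2 and 3. Of 14217 measured genes, each by its brightest probe set, 1.84% rose and 2.45% fell. These shares were 3.04% and 4.02% with the replicate block, and 6.20% and 5.07% without 100 µM replicate 1. The counts in gene lists below stand against these shares, and a count near them is no more than was seen over all genes.

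The genes with the largest differences were named by a fixed rule, which took the 15 largest called rises and falls among probe sets with a single gene symbol. The falls were the larger, from 13.2-fold to 3.62-fold, and the rises ran from 6.21-fold to 2.33-fold. All 30 kept their call without 100 µM replicate 1. Of the 15 falls, 12 kept their call when any one of the 6 arrays was left out, as did 6 of the 15 rises. The wider rule, which also took members of gene lists, named 107 called genes, of which 105 kept their call without 100 µM replicate 1, 35 without replicate 2 and 45 without replicate 3 of that dose, and 70, 51 and 57 without 30 µM replicate 1, 2 and 3. Arrays that decide a call are named below. In 4 of the falls and 3 of the rises the mean of the lower group was under 5.08, the median of all values, where the size of a difference is less certain.

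**Figure D1:**
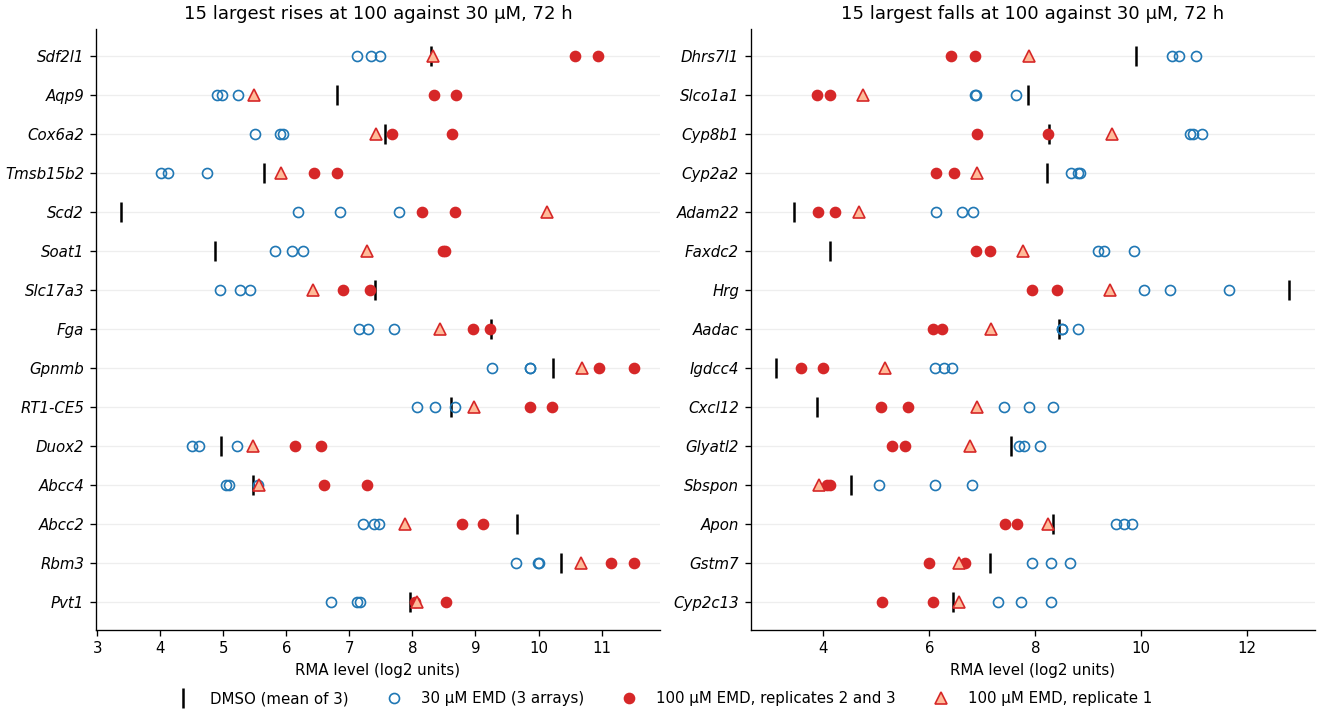
Levels of the 15 genes with the largest rises (left) and falls (right) at 100 against 30 µM EMD after 72 h, as RMA log2 values on the x axis. Open circles are the 3 arrays at 30 µM, filled circles are replicates 2 and 3 at 100 µM, the triangle is replicate 1 at 100 µM and the black bar is the mean of 3 DMSO arrays. The circles and the red symbols do not overlap in any gene, and for 13 of the rises and 13 of the falls the triangle is the red symbol nearest to the 30 µM arrays.

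The largest fall was that of Dhrs7l1, a member of the short-chain dehydrogenase family. Its level was 10.71, 10.58 and 11.02 in the 30 µM arrays and 7.89, 6.41 and 6.86 in the 100 µM arrays. The difference was -3.72 ± 0.46 (adjusted p = 0.000878), with a 95% interval from -4.69 to -2.75. All 100 µM arrays were also below the mean of the DMSO arrays, 9.91 ± 0.58 (SD).

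Genes of bile acid synthesis and hepatic transport were next. Slco1a1 encodes an organic anion transporter that takes bile acids and drugs into hepatocytes. Its level was 7.64, 6.89 and 6.86 at 30 µM and 4.75, 3.87 and 4.12 at 100 µM, a difference of -2.88 ± 0.38 (adjusted p = 0.00128). The 30 µM arrays lay near the DMSO mean of 7.87 ± 0.69 (SD), and the 100 µM arrays lay far below it. Its relative Slco1a4 fell by 1.62 ± 0.38 (adjusted p = 0.0299). Its call was lost when any one array except 100 µM replicate 1 was left out (adjusted p up to 0.18), and with an intensity trend and robust moderation (0.058). Cyp8b1, the sterol 12-alpha-hydroxylase that sets how much cholic acid is made, was at 10.91, 10.97 and 11.15 at 30 µM and at 9.46, 6.89 and 8.24 at 100 µM. The difference was -2.82 ± 0.43 (adjusted p = 0.00337). The DMSO mean of Cyp8b1 was 8.26 ± 0.56 (SD), so that the 30 µM arrays stood above the vehicle level and the 100 µM arrays lay around it. In the same list, Abcc2, the pump that exports conjugates into bile, was higher at 100 µM by 1.23 ± 0.31 (adjusted p = 0.0391), a call that was lost in the same ways (up to 0.23, and 0.066). The DMSO mean of Abcc2 was 9.65 ± 0.69 (SD), above all arrays of both doses. Of 30 measured genes of the list, 3 fell and 1 rose, without 100 µM replicate 1 the numbers were 6 and 2, and 2 fell without any other single array. The 2 rises without 100 µM replicate 1 lay near the share of all genes that rose then, 6.20%.

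Cytochromes P450 of drug and steroid metabolism were lower as well. Of 25 measured genes, 8 fell and none rose, with a list median of -0.47. Over all 14217 measured genes, each by its brightest probe set, 2.45% fell and 1.84% rose, and the median was 0.02. Cyp2a2, a steroid hydroxylase of male rat liver, was at 8.81, 8.84 and 8.67 at 30 µM and at 6.90, 6.12 and 6.46 at 100 µM. Its difference was -2.28 ± 0.30 (adjusted p = 0.00138). Cyp2c13 fell by 1.86 ± 0.35 (adjusted p = 0.0101, and 0.071 without 100 µM replicate 2), on a probe set whose suffix marks probes shared by several transcripts. Cyp2d3 fell by 1.66 ± 0.25 (adjusted p = 0.00329) and Cyp3a18 by 1.60 ± 0.28 (adjusted p = 0.00731). Both kept their calls when any one array was left out. Cyp1a1, the dioxin-inducible member, differed by -0.14 ± 0.27 and was not called. The count of falls was 9 without 100 µM replicate 1, 6 without any one of the 30 µM arrays, 5 without 100 µM replicate 3 and 4 without 100 µM replicate 2.

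Conjugating enzymes and aldehyde dehydrogenases also fell in part. Of 22 conjugation genes 3 fell and none rose, among them Sult1a1, a phenol sulphotransferase (-0.85 ± 0.16, adjusted p = 0.012), and Nat8, an N-acetyltransferase (-1.13 ± 0.22, adjusted p = 0.013). Of 18 aldehyde and alcohol dehydrogenases, 4 fell and none rose. Rdh16, a retinol dehydrogenase, fell the most of these, from 10.14, 10.04 and 10.38 at 30 µM to 9.40, 8.89 and 9.21 at 100 µM. Without 100 µM replicate 1 the falls numbered 6 and 7, and without any other single array from 0 to 2 and from 1 to 2. The call of Rdh16 held on leaving out any one array, that of Sult1a1 was lost without 30 µM replicate 2 or 100 µM replicate 2 or 3, and that of Nat8 without 30 µM replicate 3 or 100 µM replicate 2, with an adjusted p of up to 0.1. Outside these lists, Aadac, a microsomal esterase, fell by 2.11 ± 0.36, Gstm7, a glutathione transferase, by 1.88 ± 0.31, and Glyatl2, a glycine acyltransferase, by 1.98 ± 0.39. The call of Glyatl2 was lost without 30 µM replicate 2 (adjusted p = 0.051), 100 µM replicate 2 (0.089) or 100 µM replicate 3 (0.084).

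**Figure D2:**
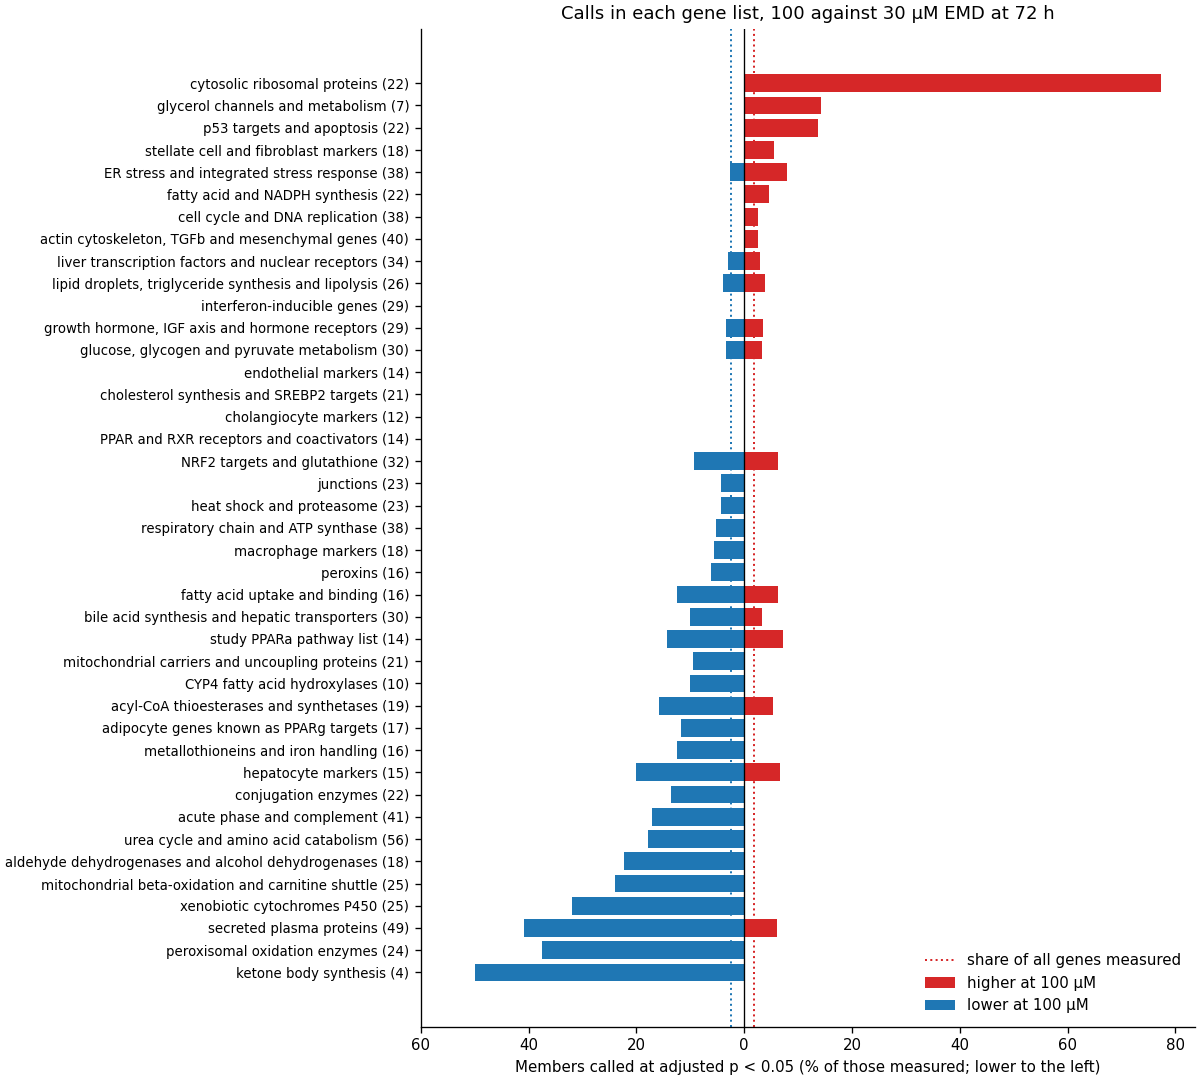
Share of each gene list that was called between 100 and 30 µM EMD at 72 h, in percent of the members measured (number in brackets), with members higher at 100 µM to the right and lower members to the left. Dotted lines mark the shares of all 14217 measured genes, 1.84% higher and 2.45% lower. Ribosomal proteins extend furthest to the right with 17 of 22 members, and plasma proteins, peroxisomal enzymes and cytochromes P450 are among the longest bars to the left.

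Secreted plasma proteins moved in both directions. Of 49 measured genes 20 fell, 3 rose and 26 were not called, and the list median was -0.39. The clotting and clot-dissolving proteins that fell included Hrg, histidine-rich glycoprotein, and Plg, the plasmin precursor. Hrg was at 11.66, 10.54 and 10.05 at 30 µM and at 9.40, 7.93 and 8.41 at 100 µM, a difference of -2.17 ± 0.37 (adjusted p = 0.00576). Every EMD array was below the DMSO mean of 12.80 ± 0.31 (SD). Plg was at 11.96, 11.71 and 11.95 at 30 µM and at 11.01, 9.30 and 9.84 at 100 µM, a difference of -1.82 ± 0.27 (adjusted p = 0.00281). Its DMSO mean was 11.39 ± 0.26 (SD), between the doses. The carriers Serpina7, which binds thyroxine, and Afm, which binds vitamin E, fell by 1.39 ± 0.20 and 1.29 ± 0.22. Serpina7 was at 4.22, 4.02 and 3.81 at 100 µM, under the median of all values. These 4 genes kept their calls when any one array was left out. The number of falls in the list was 25 without 100 µM replicate 1, 12, 10 and 14 without 30 µM replicate 1, 2 and 3, 6 without 100 µM replicate 2 and 7 without 100 µM replicate 3. With the replicate number as a block 24 fell and 4 rose.

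The 3 genes that rose were the 3 chains of fibrinogen, the precursor of fibrin. Fgg was at 12.10, 11.59 and 11.63 at 30 µM and at 12.68, 12.65 and 12.71 at 100 µM. The difference was 0.91 ± 0.15 (adjusted p = 0.00574), and it was 0.91 without 100 µM replicate 1. Fga rose by 1.50 ± 0.21 on its most changed probe set (adjusted p = 0.00173) and by 0.88 on the other. Fgb rose by 0.80 ± 0.19 on its brightest probe set (adjusted p = 0.0305), while its other 2 probe sets differed by 0.05 and 0.06 and were not called. The call of Fgb was lost without any one array except 100 µM replicate 1, with an adjusted p of up to 0.14, and after cyclic loess (0.053). In all 3 genes the DMSO level was above both doses, at 13.19 ± 0.19 for Fgg, 9.25 ± 0.25 for Fga and 12.74 ± 0.06 (SD) for Fgb. Fgg was named after its values were seen.

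The fibrinogen genes are neighbours on rat chromosome 2, and their promoters are known for interleukin-6 response elements that share the letters CTGGGA. The 250 bases before each start in RefSeq (GRCr8) are shown because these 3 genes were the called rises of their list, with each CTGGGA, read on either strand, in capitals. The windows are chr2:170671919-170672168 on the plus strand for Fga, chr2:170700876-170701125 on the minus strand for Fgb and chr2:170652833-170653082 on the plus strand for Fgg.
Fga: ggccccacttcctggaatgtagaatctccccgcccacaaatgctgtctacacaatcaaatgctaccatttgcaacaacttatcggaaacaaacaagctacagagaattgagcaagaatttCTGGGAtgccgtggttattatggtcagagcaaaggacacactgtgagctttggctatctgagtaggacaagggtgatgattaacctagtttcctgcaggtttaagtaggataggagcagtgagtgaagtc
Fgb: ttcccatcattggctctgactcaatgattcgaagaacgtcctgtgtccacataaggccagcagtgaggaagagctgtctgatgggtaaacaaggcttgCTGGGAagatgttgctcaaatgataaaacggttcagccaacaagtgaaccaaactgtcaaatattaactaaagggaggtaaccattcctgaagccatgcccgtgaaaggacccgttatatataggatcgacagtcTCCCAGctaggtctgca
Fgg: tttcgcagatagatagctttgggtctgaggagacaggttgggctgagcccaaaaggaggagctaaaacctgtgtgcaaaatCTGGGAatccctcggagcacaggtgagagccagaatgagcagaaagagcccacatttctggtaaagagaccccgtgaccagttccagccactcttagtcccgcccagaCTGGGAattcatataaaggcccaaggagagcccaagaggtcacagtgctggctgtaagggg
Each of the 3 windows held the letters at least once, as did 25.8% of the 27457 promoter windows of the same length. A match is a description of the letters, not of a bound site.

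**Figure D3:**
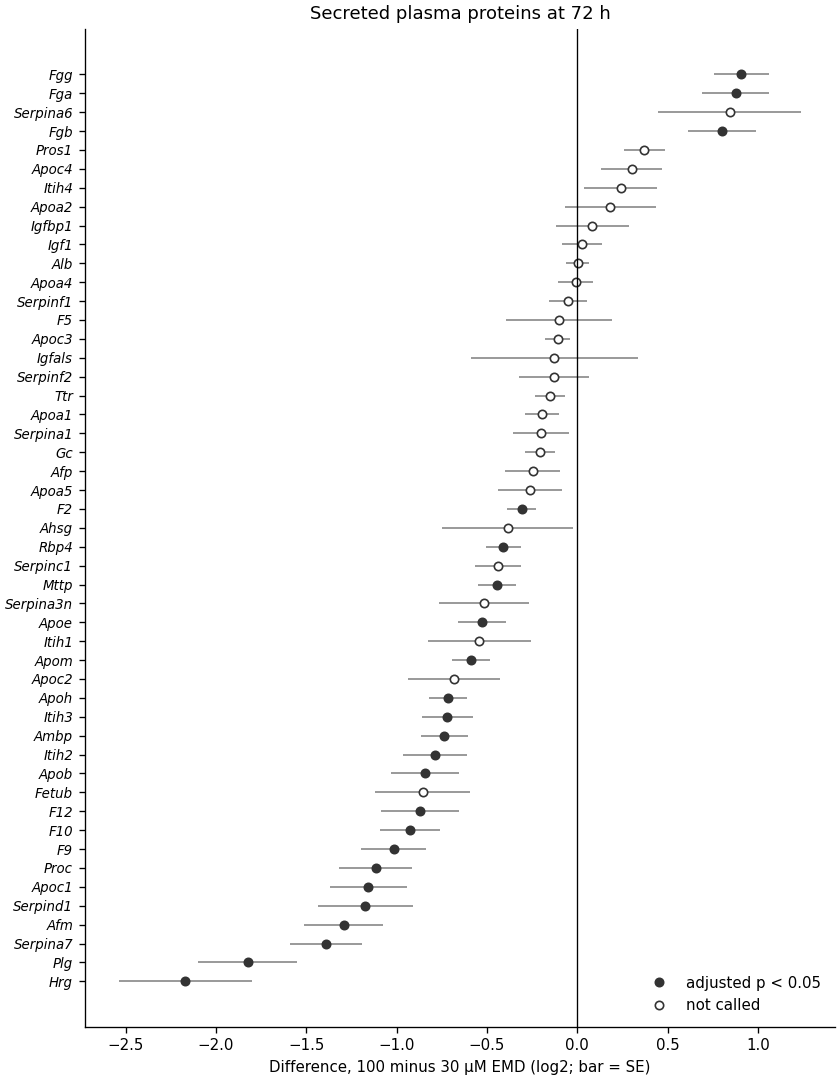
Difference of each of the 49 measured plasma protein genes between 100 and 30 µM EMD at 72 h on the log2 scale, with bars of 1 SE from the limma fit of 3 arrays a dose. Filled points were called. The 3 called points to the right of 0 are Fgg, Fga and Fgb, and the 20 called points to the left run from F2 to Hrg.

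Genes of complement and the acute phase were lower in part. Of 41 measured genes 7 fell and none rose, with a median of -0.19. C8g, a chain of the membrane attack complex, fell by 0.99 ± 0.13 (adjusted p = 0.00109), from 10.51, 10.54 and 10.41 to 9.66, 9.37 and 9.45. C5, which starts that complex, fell by 0.94 ± 0.20 (adjusted p = 0.0203, and up to 0.13 without any one array other than 100 µM replicate 1). Cxcl12, a chemokine, fell by 2.01 ± 0.40 (adjusted p = 0.014) but lost its call without replicate 2 or 3 of either dose (adjusted p up to 0.11), and its other 2 probe sets differed by -0.64 and -0.32 and were not called. The list counted 14 falls without 100 µM replicate 1 and from 1 to 3 without any other single array.

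Hepatocyte markers and markers of other liver cells give the setting of these falls. Of 15 hepatocyte markers 3 fell, Asgr2 and Asgr1, the chains of the asialoglycoprotein receptor (-1.06 ± 0.17 and -0.62 ± 0.14), and Apob (-0.84 ± 0.19), and 1 rose, Fgb. The call of Asgr2 held on leaving out any one array, those of Asgr1, without replicate 2 or 3 of either dose, and of Apob, without any array other than 100 µM replicate 1, did not (adjusted p up to 0.15). The median difference of the hepatocyte markers was -0.20, with 11 of 15 negative, and it was -0.35 after cyclic loess. Over all genes the median was 0.02. The summed signal of the hepatocyte markers, which the brightest members dominate, ranged from 16.41 to 16.57 on the log2 scale at 30 µM. It ranged from 16.33 to 16.55 at 100 µM. Of the stellate cell and fibroblast markers 1 of 18 rose and none fell, Thy1, at a level of at most 4.26 in any EMD array. Of 18 macrophage markers 1 fell, Cd14 (-0.78 ± 0.18), and none of 14 endothelial and 12 cholangiocyte markers was called. The call of Thy1 was lost without 30 µM replicate 3 or 100 µM replicate 2 or 3, and that of Cd14 without any one array other than 100 µM replicate 1 (adjusted p up to 0.09 and 0.14). Without 100 µM replicate 1 the counts of all 5 marker lists were the same. The summed signals ranged from 9.42 to 9.92 at 30 µM and from 9.48 to 10.47 at 100 µM for stellate cells, from 10.02 to 10.39 and from 10.03 to 10.11 for macrophages, from 8.38 to 8.49 and from 8.35 to 8.54 for endothelium, and from 10.20 to 10.28 and from 10.03 to 10.34 for cholangiocytes. The part of the cell mixture in the results was not tested.

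For the PPAR genes no difference between the doses was detected beyond the spread of the arrays. Ppara was at 6.55, 6.49 and 6.32 at 30 µM and at 6.37, 6.54 and 6.34 at 100 µM, a difference of -0.03 ± 0.20 with a 95% interval from -0.45 to 0.39. The difference was 0.23 ± 0.24 for Pparg (95% interval from -0.28 to 0.74) and 0.13 ± 0.16 for Ppard (-0.20 to 0.46). The sign of Ppara turned without 30 µM replicate 1 or 100 µM replicate 3, and that of Ppard without 30 µM replicate 3. None of 14 receptors, retinoid X partners and coactivators was called in either direction.

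The PPARα pathway genes that the study lists mostly stood above the vehicle level at both doses, and 1 of them was called higher at the higher dose. Of the 14 genes, 13 had a negative difference, 2 of them called, and 1 rose. The study chose that list with these samples in view, so that the count is not independent evidence of a direction. Cpt1b, the muscle-type carnitine palmitoyltransferase, was at 11.50, 11.61 and 11.62 at 30 µM and at 11.15, 10.84 and 10.94 at 100 µM. Its DMSO mean was 6.12 ± 0.11 (SD), so that both doses stood far above the vehicle. The difference between the doses was -0.60 ± 0.16 (adjusted p = 0.0487), and it was lost without any one array except 100 µM replicate 1, with an adjusted p of up to 0.23. It was also lost with array medians made equal (adjusted p = 0.056). Acox3, a peroxisomal acyl-CoA oxidase, fell by 0.65 ± 0.15 (adjusted p = 0.0248), and its call was lost without 30 µM replicate 2 or 3 or without 100 µM replicate 2 or 3, with an adjusted p of up to 0.16. Fabp5, a fatty acid binding protein of skin and macrophages, rose by 1.16 ± 0.20 (adjusted p = 0.00583), from 10.22, 10.20 and 10.55 to 11.21, 11.58 and 11.65, and kept its call when any one array was left out.

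The other 11 genes of that list were not called. Fabp3, the heart-type fatty acid binding protein, was at 11.55, 11.21 and 10.57 at 30 µM and at 11.16, 9.53 and 9.85 at 100 µM, with a difference of -0.93 ± 0.31 (adjusted p = 0.124). The groups overlapped only through 100 µM replicate 1, although within each replicate number the 100 µM array was the lower. Without that replicate 1 array the difference was -1.42 (adjusted p = 0.00073). With the replicate number as a block and all arrays kept, Fabp3 was not called (adjusted p = 0.055). Ehhadh, the peroxisomal bifunctional enzyme, differed by -0.59 ± 0.26 and Cd36, a fatty acid transporter, by -0.57 ± 0.33. The differences of Fabp1, Hadha, Acsl1, Cpt2, Cpt1a and Slc25a20 lay between -0.50 and -0.22. Those of Acsl3 (-0.05 ± 0.14) and Ucp2 (-0.03 ± 0.24) were near 0 and turned sign when 1 array was left out. Without 100 µM replicate 1 the list counted 6 falls and 1 rise, the falls including Fabp1, Hadha and Acsl1, each with an adjusted p between 0.024 and 0.048.

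Enzymes of fatty acid oxidation, taken from wider lists, leaned the same way. These lists were also chosen with earlier results of these data known, so their counts are not independent evidence either. Over all measured genes 2.45% fell, 1.84% rose and the median difference was 0.02. Of 25 genes of mitochondrial beta-oxidation and the carnitine shuttle 6 fell and none rose, with a median of -0.34, and 24 of the 25 differences were negative. Acadm, the medium-chain acyl-CoA dehydrogenase, was at 12.98, 13.02 and 12.92 at 30 µM and at 12.59, 12.05 and 12.15 at 100 µM, with a DMSO mean of 10.40 ± 0.39 (SD). The doses did not overlap and both stood above the vehicle. Its difference was -0.71 ± 0.18 (adjusted p = 0.0375). Acads, the short-chain enzyme, fell by 0.82 ± 0.14 (adjusted p = 0.00615). Of 24 peroxisomal oxidation enzymes 9 fell and none rose, with a median of -0.45 and 23 negative differences. Phyh, which starts the alpha-oxidation of phytanic acid, was at 13.07, 12.73 and 12.97 at 30 µM and at 12.54, 11.02 and 11.51 at 100 µM, a difference of -1.23 ± 0.26 (adjusted p = 0.0189). Decr2, the peroxisomal dienoyl-CoA reductase, fell by 0.83 ± 0.19 and Acot8, a peroxisomal thioesterase, by 0.75 ± 0.16. In ketone body synthesis 2 of 4 genes fell, Bdh1, which makes beta-hydroxybutyrate (-1.36 ± 0.27, adjusted p = 0.0126), and Acat1 (-0.69 ± 0.13, adjusted p = 0.00889), and there were 2 falls and 1 rise without 100 µM replicate 1.

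These counts depended on single arrays. The mitochondrial falls numbered 9 without 100 µM replicate 1 and 0 without replicate 2, and the peroxisomal falls 11 and 0. Without 100 µM replicate 3 or any one of the 30 µM arrays they numbered from 0 to 3. With the replicate number as a block the mitochondrial falls numbered 8 and the peroxisomal falls 12. The calls of Acadm and Phyh were lost without any one array other than 100 µM replicate 1, those of Decr2, Acot8 and Bdh1 without replicate 2 or 3 of either dose, that of Acat1 without 100 µM replicate 2 or 3 and that of Acads without 100 µM replicate 2, with adjusted p values between 0.052 and 0.21. The median difference stayed negative within each replicate number, at -0.22, -0.43 and -0.37 for the mitochondrial list and at -0.33, -0.63 and -0.48 for the peroxisomal list. Among the smaller lists, Pxmp2, a peroxisomal membrane channel, was the 1 of 16 peroxins and membrane proteins called (-1.39 ± 0.23). Ucp3, an uncoupling protein, fell by 0.89 ± 0.11 (adjusted p = 0.000948), and Lpl, lipoprotein lipase, by 0.86 ± 0.11 (adjusted p = 0.00138), the latter from 5.19, 4.65 and 4.70 to about the DMSO level of 3.68 at 3.96, 4.00 and 3.99.

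Lipid synthesis and storage showed few calls, where 1.84% of all genes rose and 2.45% fell. None of 21 cholesterol synthesis genes was called, and there were 3 falls without 100 µM replicate 1. In fatty acid synthesis 1 of 22 rose, Scd2, a stearoyl-CoA desaturase that is low in adult liver, and without 100 µM replicate 1 there were 1 rise and 3 falls. Its level was 7.79, 6.85 and 6.18 at 30 µM and 10.13, 8.68 and 8.15 at 100 µM, against a DMSO mean of 3.38 ± 0.31 (SD). Here 100 µM replicate 1 was the highest array, and within each replicate number the 100 µM array was the higher. The difference was 2.05 ± 0.40 (adjusted p = 0.0126) and its call was lost without 30 µM replicate 2 or 3 (adjusted p = 0.057 and 0.061). Of its other 3 probe sets 1 was called, at 1.65, and the lowest differed by 0.05. Soat1, which esterifies cholesterol for storage, rose by 2.03 ± 0.33 (adjusted p = 0.00466), from 6.09, 5.83 and 6.26 to 7.28, 8.52 and 8.48, with its other probe set at 1.77. Of 26 genes of lipid droplets and triglyceride turnover 1 rose, Hilpda, a lipid droplet protein (0.60 ± 0.15), and 1 fell, Agpat2, an acyltransferase of triglyceride synthesis (-0.43 ± 0.11). Of 19 acyl-CoA thioesterases and synthetases 1 rose, Acsl4, a synthetase with a liking for arachidonate (0.78 ± 0.12), and 3 fell, Acsm1, a medium-chain synthetase (-1.15 ± 0.23), Acot8 and Acot3, an acyl-CoA thioesterase (-0.41 ± 0.11). Without 100 µM replicate 1 the lists counted 1 rise each, and 3 and 6 falls. The call of Hilpda (adjusted p = 0.04) was lost without any one array other than 100 µM replicate 1 (up to 0.18), and that of Acsl4 (adjusted p = 0.00352) held on leaving out any one array. The call of Agpat2 (adjusted p = 0.0389) was lost without replicate 2 or 3 of either dose (up to 0.22) and with array medians made equal (0.052), and that of Acsm1 (adjusted p = 0.0139) without 30 µM replicate 2 or 100 µM replicate 2 or 3 (up to 0.11). That of Acot3 (adjusted p = 0.0481) was lost without any one array other than 100 µM replicate 1 (up to 0.22), with array medians made equal (0.053) and with an intensity trend and robust moderation (0.052).

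Amino acid catabolism was lower in part. Of 56 genes of the urea cycle and amino acid breakdown 10 fell and none rose, with a median of -0.36. Ftcd, which links histidine breakdown to folate, fell by 1.57 ± 0.30 (adjusted p = 0.0118), from 11.37, 11.24 and 10.89 to 10.34, 9.07 and 9.37. Gnmt and Mat1a, the enzymes that use and make S-adenosylmethionine, fell by 1.44 ± 0.27 and 1.21 ± 0.27. Otc, of the urea cycle, fell by 1.33 ± 0.32 (adjusted p = 0.0316), although 100 µM replicate 1 at 5.75 overlapped with 30 µM replicate 3 at 5.71. Within each replicate number the 100 µM level of Otc was the lower. Cps1, the rate-limiting enzyme of the cycle, differed by -0.02 ± 0.13 and was not called. The list counted 25 falls and 4 rises without 100 µM replicate 1, where 5.07% of all genes fell and 6.20% rose. It counted no fall without 100 µM replicate 2, 1 without replicate 3, and 2, 1 and 4 without 30 µM replicate 1, 2 and 3. With the replicate number as a block 16 fell and 2 rose, where 4.02% and 3.04% of all genes did. Slc37a4, the glucose-6-phosphate transporter, fell by 1.43 ± 0.28 and Gjb1, the main gap junction protein of hepatocytes, by 1.16 ± 0.25. The calls of Ftcd, Gnmt, Mat1a, Otc, Slc37a4 and Gjb1 were each lost without 100 µM replicate 2, with adjusted p values between 0.086 and 0.19. All but that of Gnmt were also lost without 100 µM replicate 3 or 30 µM replicate 2, those of Mat1a, Otc and Gjb1 without 30 µM replicate 1, and those of Mat1a and Gjb1 without 30 µM replicate 3.

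Chaperones of the ER included the largest called rise, and their arrays were split within the higher dose. Of 38 measured genes of ER stress and the integrated stress response 3 rose and 1 fell, and there were 14 rises and 2 falls without 100 µM replicate 1, where 6.20% of all genes rose and 5.07% fell. With the replicate number as a block 7 rose and 2 fell, where 3.04% and 4.02% of all genes did. Sdf2l1, an ER protein that keeps unfolded proteins soluble with DNAJB11, was at 7.49, 7.34 and 7.12 at 30 µM and at 8.32, 10.95 and 10.58 at 100 µM. The difference was 2.63 ± 0.43 (adjusted p = 0.0049), and it was 3.45 without 100 µM replicate 1. The DMSO mean was 8.29 ± 0.13 (SD), near 100 µM replicate 1. Hyou1, a large ER chaperone, rose by 1.34 ± 0.31 (adjusted p = 0.0263) although the doses overlapped, with 7.58, 6.86 and 6.69 at 30 µM and 7.34, 9.07 and 8.73 at 100 µM. Pdia3, which forms disulphide bonds, rose by 0.93 ± 0.21 (adjusted p = 0.0253). Both calls were lost without replicate 2 or 3 of either dose, at an adjusted p of up to 0.17 and 0.16, and Sdf2l1 was then the only member of the list that rose. In the 6 arrays alone none of the 3 was called (adjusted p between 0.1 and 0.21), and in those arrays with the replicate block Hyou1 (0.12) and Pdia3 (0.073) were not.

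The other folding genes were high in replicates 2 and 3 of the higher dose and not in replicate 1, and they were named after their values were seen. Hspa5, which encodes BiP, was at 12.17, 11.86 and 11.90 at 30 µM and at 11.82, 12.91 and 12.89 at 100 µM. The difference was 0.57 ± 0.21 (adjusted p = 0.168) with all arrays and 0.93 (adjusted p = 0.00017) without replicate 1. Creld2, a secreted protein induced by ER stress, was at 8.68, 8.62 and 8.40 at 30 µM and at 8.50, 11.40 and 11.10 at 100 µM, with a difference of 1.77 ± 0.47 (adjusted p = 0.0533) and of 2.69 without replicate 1. Hsp90b1, Calr, Pdia4, Pdia6, Dnajb11 and Dnajc3 had differences between 0.85 and 1.24 with all arrays, none called, and between 1.30 and 1.94 without replicate 1, all called. Both the genes and the array left out were chosen from these values, so the calls without replicate 1 follow in part from that choice. With the replicate number as a block and all arrays kept, Creld2, Pdia6, Dnajb11 and Dnajc3 were called, at adjusted p values of 0.02, 0.03, 0.0374 and 0.021, while Hspa5, Hsp90b1, Calr and Pdia4 were not, at values between 0.051 and 0.117. In replicate 1 the 100 µM level of Hspa5, Hsp90b1, Calr, Creld2, Pdia4 and Pdia6 was below the 30 µM level of the same number. For each folding gene named after its values were seen, the DMSO mean lay above the 30 µM mean. The DMSO means of Hspa5, Hsp90b1 and Creld2 were 12.45 ± 0.10, 12.83 ± 0.17 and 8.95 ± 0.08 (SD). Their 100 µM means were 12.54, 12.76 and 10.34.

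The transcripts of 3 factors of the ER stress and integrated stress responses were not called in the fit of all 18 arrays. Their RNA levels do not measure how active the factors were. Atf4, the transcription factor of the integrated stress response, differed by -0.30 ± 0.10 (adjusted p = 0.13), Xbp1, a factor of the unfolded protein response, by -0.24 ± 0.09 (adjusted p = 0.148) and Ddit3, which encodes CHOP, by 0.08 ± 0.13 (adjusted p = 0.866), and none was called without replicate 1 either. After cyclic loess Atf4 was called lower, by -0.41 (adjusted p = 0.036). These 3 were also named after their values were seen, and the sign of Ddit3 turned without 100 µM replicate 3. Fgf21, a hormone that PPARα and ATF4 both induce, fell by 1.75 ± 0.30 (adjusted p = 0.00615), from 10.35, 9.89 and 10.50 to 9.35, 7.65 and 8.47.

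**Figure D4:**
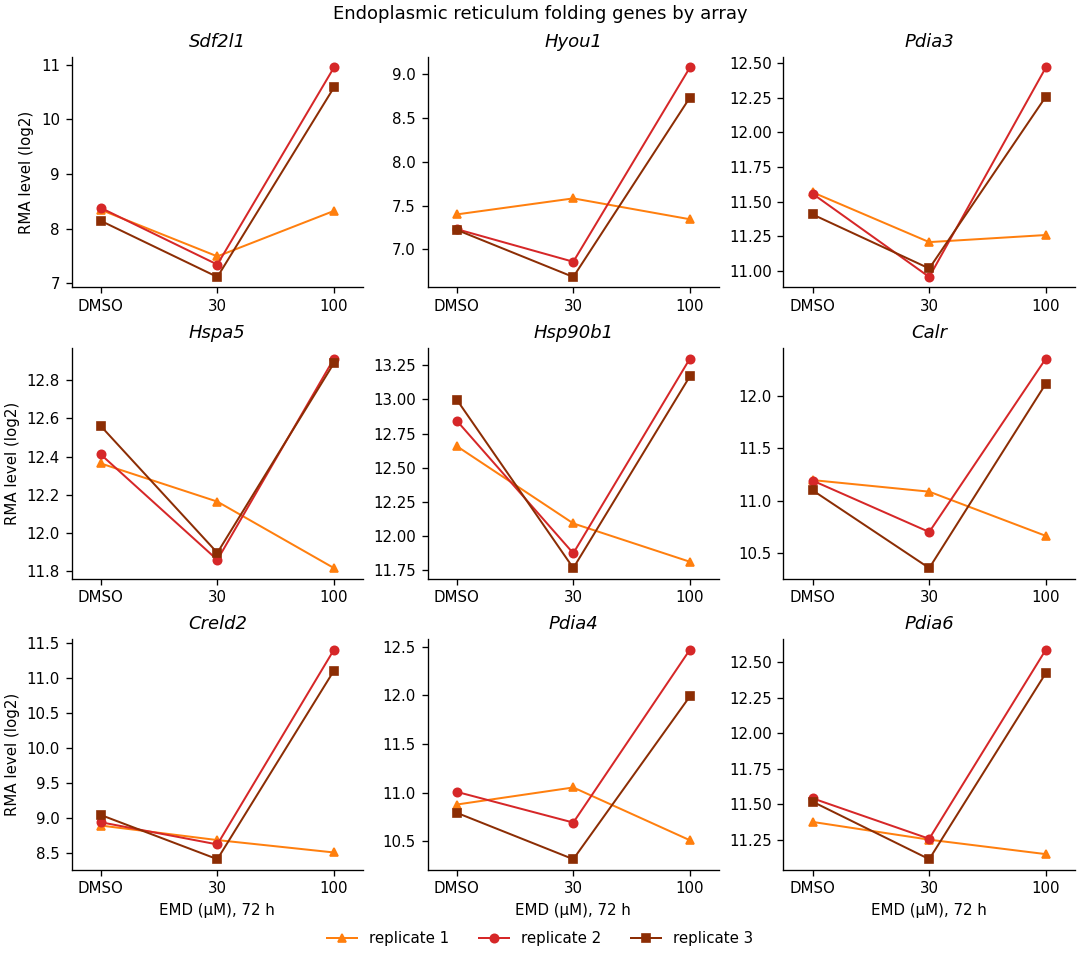
Levels of 9 ER folding genes in each array at 72 h (RMA log2 values, y axis; DMSO, 30 and 100 µM EMD on the x axis), with lines joining arrays of the same replicate number. At 100 µM, replicates 2 and 3 lie above all 30 µM arrays in all 9 genes, and replicate 1 (orange triangles) lies within or below the 30 µM arrays in 7 of them, while it is above them in Sdf2l1 (8.32 against at most 7.49) and Pdia3 (11.26 against at most 11.21).

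The ER stress response element, the letters CCAAT and CCACG with 9 bases between them, is the known site through which ATF6 acts on chaperone genes. It was searched on both strands of the 250 bases before each RefSeq start (GRCr8). Of the 11 folding genes described here, 9 have a window, and the element was found in 5 of these, Hspa5, Hsp90b1, Calr, Creld2 and Dnajc3, and not in the windows of Sdf2l1, Hyou1, Pdia4 and Dnajb11. Of all 27457 windows, 21 (0.0765%) held it. All 5 genes with the element were among those named after their values were seen. The element is known from genes of this kind, so its share among them reflects the choice of genes and does not bear on EMD. The windows of the 5 genes are printed to show these letters in capitals, with the 9 bases between them. They lie at chr3:38452766-38453015 (plus strand) for Hspa5, chr7:23012294-23012543 (minus strand) for Hsp90b1, chr19:40213117-40213366 (plus strand) for Calr, chr7:121789134-121789383 (plus strand) for Creld2 and chr15:102432417-102432666 (plus strand) for Dnajc3.
Hspa5: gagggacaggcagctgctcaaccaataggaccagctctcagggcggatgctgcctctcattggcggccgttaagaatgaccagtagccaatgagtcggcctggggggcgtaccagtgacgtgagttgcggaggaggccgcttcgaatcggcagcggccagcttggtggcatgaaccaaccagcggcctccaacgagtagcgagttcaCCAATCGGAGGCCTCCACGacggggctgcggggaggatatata
Hsp90b1: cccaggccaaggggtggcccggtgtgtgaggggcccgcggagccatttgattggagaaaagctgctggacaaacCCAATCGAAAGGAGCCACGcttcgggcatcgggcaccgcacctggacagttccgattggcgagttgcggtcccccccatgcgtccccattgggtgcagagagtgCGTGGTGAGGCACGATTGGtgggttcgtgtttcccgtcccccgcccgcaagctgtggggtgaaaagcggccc
Calr: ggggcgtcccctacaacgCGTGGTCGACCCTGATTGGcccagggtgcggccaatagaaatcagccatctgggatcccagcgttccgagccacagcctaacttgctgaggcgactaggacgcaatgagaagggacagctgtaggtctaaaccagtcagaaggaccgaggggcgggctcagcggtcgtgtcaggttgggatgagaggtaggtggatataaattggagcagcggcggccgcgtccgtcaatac
Creld2: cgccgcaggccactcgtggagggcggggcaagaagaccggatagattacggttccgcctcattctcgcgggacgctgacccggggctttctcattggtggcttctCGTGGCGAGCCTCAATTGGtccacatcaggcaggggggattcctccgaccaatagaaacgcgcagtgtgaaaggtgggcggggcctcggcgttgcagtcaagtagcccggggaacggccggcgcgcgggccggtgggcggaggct
Dnajc3: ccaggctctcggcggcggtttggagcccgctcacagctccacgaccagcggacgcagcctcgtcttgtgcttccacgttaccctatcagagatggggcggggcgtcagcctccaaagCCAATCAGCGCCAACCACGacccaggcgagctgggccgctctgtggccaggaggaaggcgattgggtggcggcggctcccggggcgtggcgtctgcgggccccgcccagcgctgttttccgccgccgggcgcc
Hsp90b1 held the element at 2 places, 1 on each strand. Whether the element has a part in these levels was not tested.

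Ribosomal protein genes rose by small amounts. Of 22 measured genes 17 rose and none fell, with a median of 0.33 and differences between 0.07 and 0.49. Rps3, a protein of the small subunit, was at 12.72, 12.89 and 12.88 at 30 µM and at 13.15, 13.39 and 13.39 at 100 µM, a difference of 0.48 ± 0.09 (adjusted p = 0.00739). The DMSO mean was 13.08 ± 0.07 (SD), between the doses. Rpl14, Rpl35 and Rps15 rose by 0.49 ± 0.09, 0.46 ± 0.09 and 0.45 ± 0.09. The calls of all 4 were lost without 100 µM replicate 2 or 3, those of Rpl35 and Rps15 also without 30 µM replicate 1 and that of Rps15 without 30 µM replicate 2 (adjusted p up to 0.11). The direction held within each replicate number, with list medians of 0.25, 0.39 and 0.34. The count depended on the scaling of the arrays. After cyclic loess 4 rose and the median was 0.18, where 1.49% of all genes rose and 2.75% fell, and with array medians made equal 11 rose. It was 20 without 100 µM replicate 1, none without 100 µM replicate 2 or 3, and 3, 4 and 6 without 30 µM replicate 1, 2 and 3.

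Stress genes outside the ER were called in small numbers, where 1.84% of all genes rose and 2.45% fell. Of 22 p53 targets and apoptosis genes 3 rose and none fell. Ccng1, a cyclin induced by p53, rose by 0.86 ± 0.13 (adjusted p = 0.00361), from 10.39, 10.36 and 10.14 to 10.87, 11.37 and 11.24, and kept its call when any one array was left out. Its DMSO mean was 11.02 ± 0.22 (SD), above all 30 µM arrays and within the range of the 100 µM arrays. Fas, a death receptor, rose by 0.52 ± 0.11 and Bcl2l1, which restrains apoptosis, by 0.63 ± 0.17 (adjusted p = 0.0494), with the other 2 probe sets of each gene not called. The DMSO mean of Fas, 7.99 ± 0.14 (SD), lay above all arrays of both doses. The DMSO mean of Bcl2l1, 8.40 ± 0.14 (SD), lay between the means of the doses. The call of Fas was lost without replicate 3 of either dose, 30 µM replicate 1 or 100 µM replicate 2 (adjusted p up to 0.13). That of Bcl2l1 was lost without any one array other than 100 µM replicate 1 (up to 0.28), after cyclic loess (0.052) and with array medians made equal (0.056). The list counted 5 rises without 100 µM replicate 1, 2 without 30 µM replicate 2 and 1 without any other single array. Of 32 NRF2 targets and glutathione genes 2 rose, the export pumps Abcc4 (1.25 ± 0.30) and Abcc2, and 3 fell, the glutathione transferases Gstm3 (-1.33 ± 0.29) and Gstm1 (-0.57 ± 0.09), the latter named after its values were seen, and Osgin1 (-0.72 ± 0.18). The DMSO mean of Abcc2, 9.65 ± 0.69 (SD), lay above all arrays of both doses. That of Abcc4, 5.47 ± 0.28 (SD), lay within the 30 µM arrays and below the 100 µM arrays. Without 100 µM replicate 1 the list counted 4 rises and 3 falls. Of 38 cell cycle genes 1 rose, Tyms, thymidylate synthase (0.95 ± 0.18), and there were 4 rises without 100 µM replicate 1. The call of Gstm1 held on leaving out any one array. The calls of Abcc4, Gstm3, Osgin1 and Tyms were all lost without 100 µM replicate 2 (adjusted p between 0.084 and 0.19), those of all but Gstm3 without 100 µM replicate 3, those of Abcc4 and Osgin1 without 30 µM replicate 1, those of all but Tyms without 30 µM replicate 2, and those of all but Osgin1 without 30 µM replicate 3.

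Several of the largest rises fell outside the lists described above. Among 7 measured genes of glycerol channels and metabolism 1 rose, Aqp9, and none fell. The median of that list was -0.49, with 5 negative differences. Aqp9, the glycerol channel of hepatocytes, was at 5.24, 4.98 and 4.90 at 30 µM and at 5.48, 8.70 and 8.35 at 100 µM, with a difference of 2.47 ± 0.51 (adjusted p = 0.0168). It split as the chaperones did, with replicate 1 close to the 30 µM arrays and an SD of 1.76 at 100 µM. Its call was lost without 100 µM replicate 2 (adjusted p = 0.11) or 3 (0.1) and without 30 µM replicate 2 (0.066) or 3 (0.061). It was also lost in the 6 arrays alone (adjusted p = 0.18) and in those arrays with the replicate block (0.053). Cox6a2, the muscle form of a cytochrome oxidase subunit, rose by 2.13 ± 0.37 (adjusted p = 0.00677, and 0.055 without 100 µM replicate 2). Slc17a3, an organic anion transporter, rose from 5.42, 4.95 and 5.26 to 6.43, 7.33 and 6.91, by 1.68 ± 0.20 (adjusted p = 0.000714). The last of these kept its call when any one array was left out, and its DMSO mean was 7.40 ± 0.31 (SD). Rbm3, an RNA-binding protein induced by cold, rose by 1.23 ± 0.17 (adjusted p = 0.0014) and Gpnmb, a lysosomal membrane glycoprotein of macrophages, by 1.40 ± 0.31 (adjusted p = 0.0216, and up to 0.14 without replicate 2 or 3 of either dose). RT1-CE5, a class I histocompatibility gene, rose by 1.32 ± 0.25 on a probe set that may bind related genes and lost its call without 30 µM replicate 1 or 100 µM replicate 2 or 3 (adjusted p up to 0.087). Of its other 4 probe sets 3 were called and the lowest differed by 0.03.

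Some of the largest falls were of genes that were low in the vehicle cells. Faxdc2, a fatty acid hydroxylase domain protein, was at 9.30, 9.87 and 9.18 at 30 µM and at 7.77, 6.87 and 7.15 at 100 µM, a difference of -2.19 ± 0.36 (adjusted p = 0.00496). Its DMSO mean was 4.13 ± 0.30 (SD), so that both doses stood above it. Igdcc4, an immunoglobulin family membrane protein, was at 6.27, 6.11 and 6.43 at 30 µM and at 5.16, 3.58 and 3.98 at 100 µM, with a DMSO mean of 3.11 ± 0.10 (SD). It fell by 2.03 ± 0.27 (adjusted p = 0.00138). Adam22 fell by 2.26 ± 0.34 (adjusted p = 0.00323) on a probe set at 3.44 ± 0.33 (SD) in DMSO, and of its other 2 probe sets 1 was called at -0.75 and the other differed by 0.17. Each of these comparisons with DMSO uses the same 30 µM and 100 µM arrays as the dose difference and is given as a level only.

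At 24 h no probe set was called between the same doses (0%), with 1421 at an unadjusted p under 0.05 in the limma fit against 4761 at 72 h. Of the 963 probe sets called at 72 h, 863 (89.6%) had a difference of the same sign at 24 h, against 59.4% of all probe sets, and the arrays of the times are separate. The median size of the 24 h difference was 0.170 for the called probe sets and 0.0824 for all. Among the 30 named genes, the 24 h difference had the sign of the 72 h difference in 14 of 15 rises and 14 of 15 falls. It was -1.16 for Dhrs7l1, -1.04 for Cyp8b1 and 0.93 for Slc17a3, and the exceptions were Duox2, an oxidase, at -0.01 and Cyp2c13 at 0.11.

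The difference between the times was itself tested. Only 2 of 31042 probe sets (0.00644%) had a dose difference at 72 h that differed from that at 24 h, with 1804 at an unadjusted p under 0.05. One was Cd302, a lectin-like receptor, with a dose difference of -0.23 ± 0.15 at 24 h and -1.77 ± 0.15 at 72 h. Its 72 h levels were 9.95, 10.08 and 9.89 at 30 µM and 8.42, 8.14 and 8.05 at 100 µM, without overlap. For the other genes named here, a larger difference at 72 h than at 24 h was not called.

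**Figure D5:**
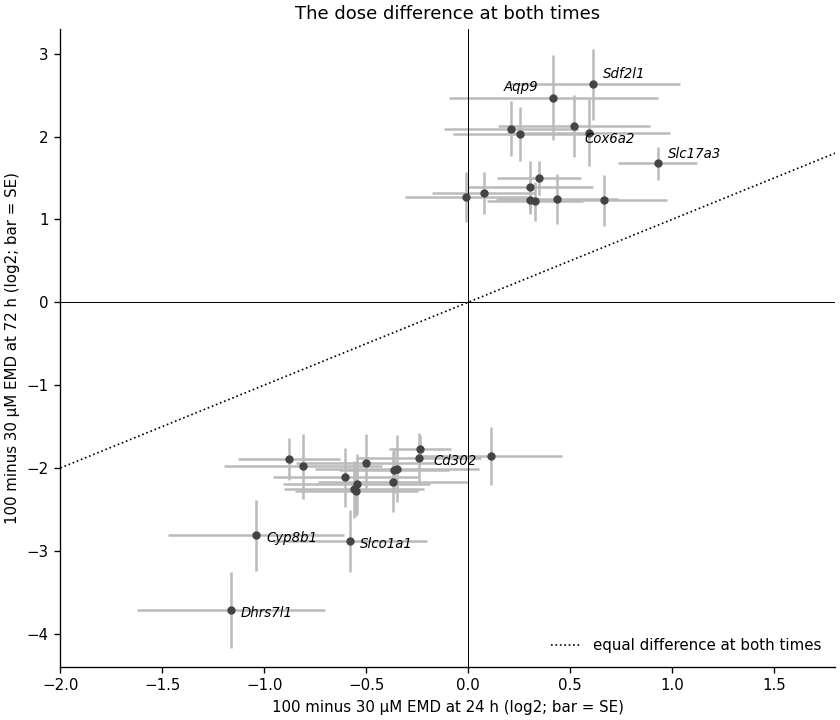
Dose difference (100 minus 30 µM EMD, log2) at 24 h on the x axis and at 72 h on the y axis for the 30 genes with the largest rises and falls and for Cd302, with bars of 1 SE from the limma fit of 3 arrays a dose. The dotted line marks equal differences. All points lie further from 0 at 72 h than at 24 h, and Dhrs7l1 is the lowest at -1.16 and -3.72. The 30 genes were chosen by their 72 h difference and Cd302 by its change with time. Their greater distance from 0 at 72 h follows in part from that choice and does not show that the dose difference grew.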

How the data were processed

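RNA of cultured Wistar rat hepatocytes was hybridised to Affymetrix Rat Genome arrays. Per the methods, the authors computed RMA values with Affymetrix software and the standard rat library, and the deposited values are on a log2 scale, background-corrected, quantile-normalized and summarised per probe set. Quantile normalization makes the arrays' distributions alike, so an overall shift cannot be seen. No version of that software was given in the sources used here. Control probe sets (57 of 31099) were left out. GEO's platform annotation gave 1 symbol to 20826 probe sets, several to 436 and none to 9780, and 20758 symbols were matched to RefSeq names (GRCr8).

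Group means were fitted with limma 3.58.1 in R 4.3.3 (lmFit and eBayes, 18 arrays in 6 groups, two-sided), with Benjamini-Hochberg adjustment over 31042 probe sets and a threshold of 0.05. The methods give fold changes and a test for pathway enrichment, and name none for the difference of a single gene. The fit was tested on simulated data. Each gene of the 41 lists stood for its brightest probe set with a single symbol, by the mean over 18 arrays, and lists were described by counts and medians. Of each gene, promoter windows were those with the start furthest upstream.

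Named were the 15 largest called rises and falls with a single symbol and no overlap between doses, up to 4 called members of each list, the PPAR genes with the study's PPARα list, and up to 5 genes in each direction whose dose difference changed with time. Hspa5, Hsp90b1, Calr, Creld2, Pdia4, Pdia6, Dnajb11, Dnajc3, Atf4, Xbp1, Ddit3, Fgg and Gstm1 were named after their values were seen, as were Cyp1a1 and Cps1, list members that were not called. Members, lists and rules were chosen with earlier results of these data known.

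Equal replicate numbers were checked for pairing. At 72 h the deviations from the group means of same-numbered arrays correlated in 9 of 9 pairs above 0.1 (from 0.12 to 0.53). Of pairs with different numbers 3 of 18 were above 0.1, with a median of -0.22. Deviations within a group sum to 0, so that negative median is not a separate contrast. At 24 h 7 of 9 same-numbered pairs and 4 of 18 others were above 0.1. The numbers were taken as a likely pairing, which the labels do not state. The main fit does not use this pairing, and the replicate block does. The alternatives were the replicate block, cyclic loess, equal medians, a filter at the median value, trend with robust moderation, array weights, the 6 arrays alone, stricter thresholds, the mean of a gene's probe sets (for list counts) and leaving out each array.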

Additional observations from a re-analysis of the deposited data

Results flagged for a closer look

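The dose difference differed between the times, by a test of the difference itself, in 2 probe sets. For Cd302 the difference at 72 h minus that at 24 h was -1.54 ± 0.21 (limma adjusted p = 0.0299). The 72 h fall was -1.88 without 100 µM replicate 1.

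The other was 1382914_at, a probe set without a gene name in the annotation used here, with -1.96 ± 0.25 (adjusted p = 0.0147). Its levels at 72 h were 6.39, 7.08 and 6.90 at 30 µM and 5.23, 4.48 and 5.06 at 100 µM, against a DMSO mean of 3.74 ± 0.12 (SD), and its dose difference at 24 h was 0.10 ± 0.17. Groups of 3 arrays were too small for a check of single outlying arrays.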

How the results depend on the processing

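The number of probe sets called between the doses at 72 h was 963. It was 1625 with the replicate block, 3336 with array weights, 141 in the 6 arrays alone, 1461 in those arrays with the replicate block, 186 at an adjusted p under 0.01 and 171 with at least 2-fold. Leaving out 1 array gave from 141 to 2541. The number of probe sets whose dose difference changed with time was 2, and it was 1 with the replicate block, 45 with array weights, 0 above the median value and 0 in the 12 EMD arrays alone, and from 0 to 179 on leaving out 1 array, with 179 without 100 µM replicate 1. The other alternatives moved neither count by over 1.5 times, and the causes were not tested. Of the 107 genes named by the rule and called, none changed sign under any alternative run on single probe sets, 34 kept their call on leaving out each array, 27 in the 6 arrays alone, all with the replicate block and 105 without 100 µM replicate 1. With the mean of a gene's probe sets, run for the list counts alone, 10 of 82 counts moved by over 1.5 times, among them the falls of conjugation enzymes, from 3 to 5, and the rises of p53 targets, from 3 to 1. Among genes not called, some turned sign on leaving out 1 array, with differences from -0.10 to 0.014 for Ppara, from -0.049 to 0.25 for Ppard, from -0.16 to 0.074 for Acsl3, from -0.18 to 0.12 for Ucp2 and from -0.077 to 0.22 for Ddit3. With 3 arrays a dose, small differences can be missed, and dim probe sets have compressed differences.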
